A study of Mus musculus with 81 samples.

Results

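Domains of the histone variant mH2A1 that lay apart from every called mH2A2 domain were described in hippocampal area CA1 of male C57BL/6J mice. The genome was read in bins of 200 bp. A bin belonged to the mH2A1 consensus when it lay under a called domain in at least 2 of the 3 untrained mH2A1 lists of the 30 min set, and adjacent bins were merged. A consensus domain was kept as mH2A1-only when none of its bins lay under a domain in any of the 3 mH2A2 lists from those untrained mice. This gave 14817 mH2A1-only domains of 79716 mH2A1 consensus domains, or 18.6%, and left 64899 mH2A1 domains with mH2A2.

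The other data were ChIP domain lists and RNA counts from the same brain region. Fear conditioned mice were sampled 30 min (n = 2 for each variant), 1 h (n = 2 for mH2A1 and 3 for mH2A2) or 6 h (n = 5, mH2A1 only) after training. Untrained mice from the home cage were set against them in each set (n = 3 for each variant, n = 2 for mH2A1 and 3 for mH2A2, and n = 5). RNA came from mice given AAV-DJ with shH2afy, which targets mH2A1, shH2afy2, which targets mH2A2, or a scramble control, shScr (n = 3 each). It also came from trained and untrained mice with shH2afy or shScr (n = 3 each, 1 h), and from trained (n = 2) and untrained (n = 3) intact mice (1 h). The shRNA was driven by a U6 promoter, so it was not restricted to one cell type. In the 30 min set both variants were read in the same mice, whereas in the 1 h set each variant came from its own mice. By the study's methods, the mH2A1 antibody changed supplier between the 30 min set and the later sets. The protocol labels of the later sets instead name the supplier used at 30 min. Antibody and time thus cannot be told apart for mH2A1 across sets.

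MacroH2A variants replace canonical H2A in the nucleosome and carry a large globular macro domain joined by a linker to the histone fold. mH2A1 and mH2A2 are encoded by separate genes, H2afy and H2afy2. Both are known for broad domains over silent chromatin and the inactive X chromosome, and also mark a share of active genes.

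The central 300 bases of 4 mH2A1-only domains are shown because these domains were the longest or recurred in the most libraries (GRCm38, plus strand, read 5′ to 3′). Capitals mark CG dinucleotides, the sites of DNA methylation. The first lies at chr11:112896551-112896850, the next at chr15:59190751-59191050, the third at chr2:9885951-9886250 and the last at chr12:69454451-69454750.
Domain on the Sox9 side, the longest: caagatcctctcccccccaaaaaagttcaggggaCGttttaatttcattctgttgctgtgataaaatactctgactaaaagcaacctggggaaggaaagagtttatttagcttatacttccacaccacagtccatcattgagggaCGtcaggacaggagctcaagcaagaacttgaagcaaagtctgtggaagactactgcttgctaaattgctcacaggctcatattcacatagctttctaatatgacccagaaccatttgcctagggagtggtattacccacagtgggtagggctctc
Domain on the Mtss1 side: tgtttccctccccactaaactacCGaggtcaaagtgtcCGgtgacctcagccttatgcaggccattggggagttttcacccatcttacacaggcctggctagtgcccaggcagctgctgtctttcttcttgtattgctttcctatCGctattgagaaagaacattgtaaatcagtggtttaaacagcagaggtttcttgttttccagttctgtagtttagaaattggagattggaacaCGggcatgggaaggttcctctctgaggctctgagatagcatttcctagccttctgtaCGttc
Domain reaching 4930412O13Rik and Gata3: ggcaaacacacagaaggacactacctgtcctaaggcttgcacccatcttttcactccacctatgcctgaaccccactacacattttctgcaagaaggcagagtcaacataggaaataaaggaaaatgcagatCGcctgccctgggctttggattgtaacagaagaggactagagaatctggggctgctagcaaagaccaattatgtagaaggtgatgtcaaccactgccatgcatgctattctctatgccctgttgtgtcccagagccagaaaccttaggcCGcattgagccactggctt
Domain on chromosome 12 with no bin in another mH2A2 library: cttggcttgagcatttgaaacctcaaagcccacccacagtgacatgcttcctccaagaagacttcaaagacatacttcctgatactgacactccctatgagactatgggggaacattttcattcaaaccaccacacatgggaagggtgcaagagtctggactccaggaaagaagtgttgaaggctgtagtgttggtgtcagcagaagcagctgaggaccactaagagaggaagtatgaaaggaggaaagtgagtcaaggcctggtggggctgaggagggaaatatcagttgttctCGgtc
The 4 windows held 2, 5, 2 and 1 CG dinucleotides in the order given, and none overlapped an annotated untranslated region.

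The mH2A1-only domains were short and thinly supported. They summed to 33.4 Mb, which is 9.28% of the consensus bases and 1.23% of all bins. Their median length was 2.0 kb (quartiles 1.2 and 3.0 kb, range 0.2 to 17.8 kb), against 3.2 kb for mH2A1 domains with mH2A2, which reached 187 kb. Only 33 mH2A1-only domains were 10 kb or longer. A bin present in all 3 mH2A1 lists was found in 2703 of them (18.2%), against 49.4% of domains with mH2A2, and the other 12114 rested on exactly 2 lists throughout. These values follow from the selection and are given without a test.

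The border of the selection was close for many domains. The nearest untrained mH2A2 bin lay at a median of 4.0 kb from an mH2A1-only domain, with quartiles at 1.4 and 10.0 kb. Just outside the selection, 1254 consensus domains had a single bin under mH2A2, and 28498 regions free of mH2A2 were in 1 mH2A1 list only.

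The 2 untrained mH2A1 libraries of the 1 h set are called macroH2A1 in their titles and macroH2A2 in their antibody field. They were grouped by title, and results resting on them are also given without them. Replicate 1 of the untrained mH2A2 libraries of the 1 h set stood apart from its group. The 30 lists held 51899 to 95952 domains each and covered 8.28 to 23.7% of bins. Libraries of the later mH2A1 sets covered more of the genome (20.8 to 23.7%) than those of the 30 min mH2A1 set (11.9 to 15.3%), so coverage was also expressed as fold over the share of all bins covered in the same library. On the X chromosome, every list covered under 1% of bins (0.0778 to 0.394%), against 9.13 to 26.2% of autosomal bins.

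In the 1 h libraries, which had no part in the selection, mH2A1 covered most mH2A1-only bases and mH2A2 covered a minor share. The 30 min mH2A1 libraries of trained mice, also outside the selection, covered less, 34.5 and 34.1%. At 1 h, mH2A1 lay over 69.9 and 74.7% of mH2A1-only bases in trained mice and over 76.0 and 66.0% in untrained mice. mH2A2 lay over 19.4, 17.9 and 26.7% in trained mice and over 37.7, 22.3 and 23.0% in untrained mice. All 4 mH2A1 libraries were above all 6 mH2A2 libraries, and the 37.7% was replicate 1 named above.

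Scaled to the share of all bins covered, the coverage was 3.25 ± 0.0768-fold for mH2A1 (SD, n = 4) and 1.65 ± 0.334-fold for mH2A2 (SD, n = 6). The difference of 1.6 had a two-sided exact permutation p = 0.00952, the smallest these numbers allow, and an adjusted p = 0.0381 over 4 coverage comparisons. Without the 2 libraries that carry both antibody names the difference was 1.66 (exact permutation p = 0.0714, the smallest that 2 against 6 libraries allow). The mH2A2 coverage was still above the genome in every one of the 6 libraries, at 1.41 to 2.3-fold. Relative to mH2A1 domains with mH2A2 in the same library, the ratio was 0.938 to 1.02 for mH2A1 and 0.362 to 0.686 for mH2A2.

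**Figure D1:**
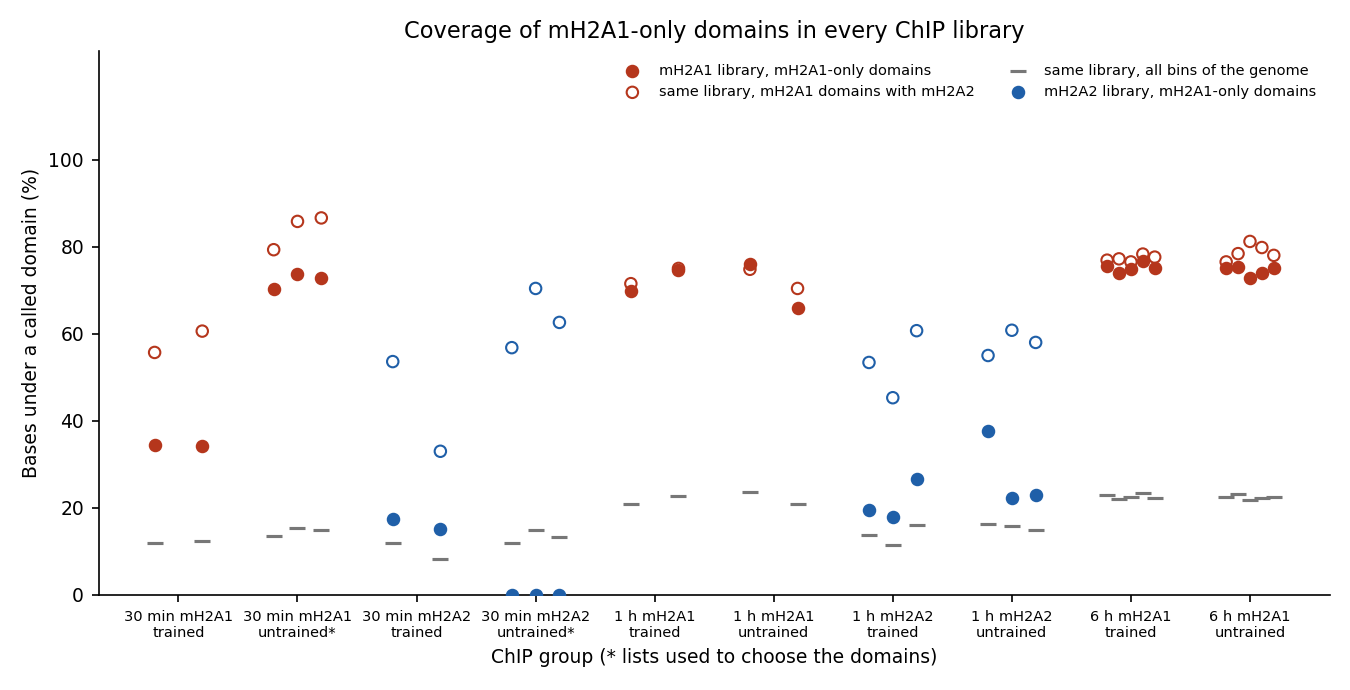
Share of bases (%, vertical axis) under a called domain in each of 30 ChIP libraries (horizontal axis, by group). Filled points are mH2A1-only domains, open points mH2A1 domains with mH2A2 and dashes all bins, with mH2A1 libraries in red and mH2A2 libraries in blue. The 1 h mH2A1 libraries sit between 66.0 and 76.0% and the 1 h mH2A2 libraries between 17.9 and 37.7%. Groups with an asterisk chose the domains.

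Training was not seen to move the coverage at 6 h. Trained mice had 75.6, 73.9, 74.9, 76.7 and 75.1% of mH2A1-only bases under mH2A1, and untrained mice had 75.2, 75.3, 72.9, 74.0 and 75.2%. The groups overlapped, and the fold over all bins was 3.33 ± 0.0378 in trained and 3.32 ± 0.0298 in untrained mice (SD, n = 5 each, exact permutation p = 0.532, adjusted p = 0.709). At 1 h, mH2A2 gave 1.55-fold in trained and 1.75-fold in untrained mice (n = 3 each, exact permutation p = 0.9). mH2A1 gave 3.32-fold in trained and 3.19-fold in untrained mice at 1 h, where 2 against 2 libraries cannot give an exact permutation p below 0.333, the value found.

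In the 30 min set, mH2A1 covered 34.5 and 34.1% of mH2A1-only bases in trained mice and 70.3, 73.8 and 72.7% in untrained mice. The untrained lists chose the domains, so this gap is a description and was not tested. mH2A2 covered 17.5 and 15.1% in trained mice at 30 min, against 0 in untrained mice by construction. Over domains with mH2A2, 30 min mH2A1 coverage was 55.7 and 60.6% in trained mice and 79.3, 85.8 and 86.6% in untrained mice.

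The enrichment was centred on the domains in libraries outside the selection, on a raised surround. In the 1 h mH2A1 libraries, the bin at the domain centre was covered for 69.6% of domains in trained mice and 68.5% in untrained mice. At 20 kb before the centre these shares were 51.2% in trained and 50.3% in untrained mice, against 23.0 to 26.2% of autosomal bins in the 1 h mH2A1 libraries. For mH2A2 at 1 h, the centre was covered for 20.5% in trained and 26.6% in untrained mice, and 20 kb before it for 17.1% in trained and 21.7% in untrained mice. mH2A2 thus also had a low peak at the centre in these later libraries.

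**Figure D2:**
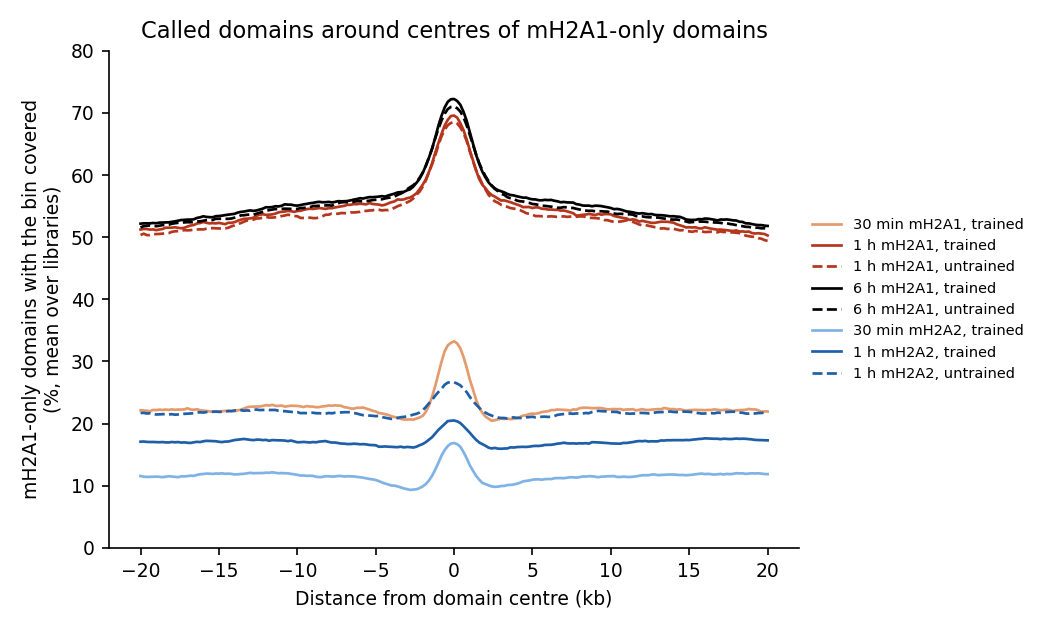
Share of mH2A1-only domains (%, vertical axis, mean over libraries) whose bin at a given distance from the domain centre (kb, horizontal axis) lay under a called domain. Solid lines are trained and dashed lines untrained mice, and the untrained lists that chose the domains are left out. The 1 h mH2A1 lines stand at 69.6% (trained) and 68.5% (untrained) at the centre and at 51.2 and 50.3% at 20 kb before it.

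Single domains differed widely in how often they came back. A domain was counted as recurring in a library that covered at least 50% of its length. The median mH2A1-only domain recurred in 13 of the 16 other mH2A1 libraries and in 1 of the 8 other mH2A2 libraries, against 14 and 4 for domains with mH2A2. In all 14 mH2A1 libraries of the 1 h and 6 h sets, 5288 mH2A1-only domains recurred (35.7%), against 45.7% of domains with mH2A2. Without the 2 libraries that carry both antibody names, 41.5% of mH2A1-only domains recurred in all the others. At the other end, 1052 (7.1%) recurred in none of the 14.

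The absence of mH2A2 held for a minority of domains across mice. Of the mH2A1-only domains, 3711 (25.0%) recurred in no other mH2A2 library, against 5.93% of domains with mH2A2, and 2927 (19.8%) had no bin under mH2A2 in any of the 8. Leaving out replicate 1 of the untrained 1 h mH2A2 libraries moved the 25.0% to 33.7%. In contrast, 1071 mH2A1-only domains recurred in at least 5 of the 8 mH2A2 libraries. Recurrence in every late mH2A1 library together with no mH2A2 bin held for 628 domains, and for 117 when the 30 min trained mH2A1 libraries were required too.

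**Figure D3:**
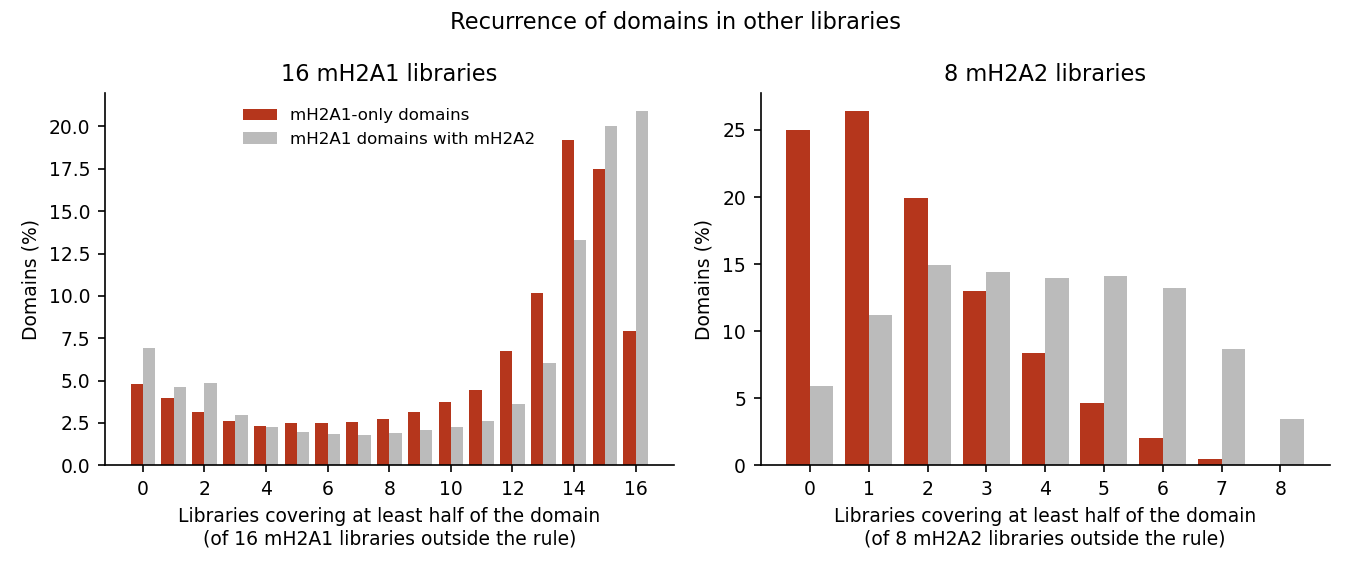
Share of domains (%, vertical axis) by the number of libraries that covered at least 50% of the domain (horizontal axis), for 16 mH2A1 (left) and 8 mH2A2 (right) libraries outside the selection. Red bars are mH2A1-only domains and grey bars mH2A1 domains with mH2A2. In mH2A2 libraries 25.0% of mH2A1-only domains stand at 0, against 5.93% of domains with mH2A2.

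Domain length and list support moved with recurrence. Among domains of 4 to 10 kb, mH2A1-only domains recurred in a mean of 13.3 mH2A1 libraries and domains with mH2A2 in 12.2, and mH2A1-only domains in 2.21 mH2A2 libraries, against 4.18 for domains with mH2A2. Bins found in all 3 selecting mH2A1 lists were covered in 77.7 to 87.9% of cases by the later mH2A1 libraries. Bins in 2 lists were covered in 63.7 to 74.5%, mH2A2-free bins in 1 list in 44.4 to 53.5%, and bins in no list in 6.36 to 10.1%. Coverage by the 1 h mH2A2 libraries fell in the same order, so the order was not particular to mH2A1. It was 21.2 to 44.5% for bins in 3 lists, 17.2 to 36.3% in 2, 13.5 to 27.7% in 1 and 2.86 to 5.72% in none.

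The longest mH2A1-only domain, chr11:112887801-112905600, spanned 17.8 kb and began 106 kb from the start of Sox9, a transcription factor of astrocytes and progenitors. It recurred in 16 of 16 mH2A1 and 2 of 8 mH2A2 libraries. The next, chr10:60202801-60220000 (17.2 kb), held the start, exons and untranslated sequence of Chst3, which sulfates chondroitin of the extracellular matrix, and recurred in 15 mH2A1 and 5 mH2A2 libraries. The 14.0 kb domain chr1:172338401-172352400 lay over Kcnj10, the inward rectifier potassium channel Kir4.1 of astrocytes, and recurred in 14 mH2A1 and 5 mH2A2 libraries. One of the 10 longest went the other way: the 13.6 kb domain in Ttc7 at chr17:87339601-87353200 recurred in 3 mH2A1 and 7 mH2A2 libraries.

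Domains that recurred in all 16 mH2A1 libraries and in none of the 8 other mH2A2 libraries were led by 2 intergenic domains. These were the 15.8 kb domain at chr15:59183001-59198800, 101 kb from Mtss1, and the 15.4 kb domain at chr6:99798201-99813600, 71.8 kb from Prok2. The 10.2 kb domain chr2:9881001-9891200 reached exons of Gata3, a transcription factor gene, and had 29.6 CpG per kb against 10.2 over all mH2A1-only bases. The Gata3 domain held mH2A2 bins in 4 of the 8 libraries, the domain on the Mtss1 side in 2 and that on the Prok2 side in 6. The 10.0 kb domain chr12:69449601-69459600 lay outside genes and was free of every mH2A2 bin in the 8 libraries. Chosen after the values were seen, the 6.2 kb domain chr14:8310001-8316200 in Fam107a, an astrocyte-enriched gene, was also free of mH2A2 in all 8 and recurred in 16 of 16 mH2A1 libraries.

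The 10 domains with the highest mean log2 enrichment over input in the selecting lists (0.925 to 1.2) recurred in 0 to 15 of the 16 mH2A1 libraries. The highest, chr13:60963201-60964400, lay 21.2 kb from the start of Tpbpa and recurred in 2 mH2A1 and 4 mH2A2 libraries. The next, chr9:51189001-51191400, lay 22.3 kb from Pou2af1, a B cell coactivator, and recurred in 15 mH2A1 and 0 mH2A2 libraries. One at chr7:106378401-106380800, 163 kb from Gvin1, recurred in 0 mH2A1 libraries.

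mH2A1-only domains lay away from genes. Outside protein-coding genes were 75.8% of them, against 62.5% of domains with mH2A2, and 8.76% touched a coding exon, against 23.9% of domains with mH2A2. The median distance to a coding start site was 63.9 kb, against 35.8 kb for domains with mH2A2, and 3.7% lay within 2 kb of one, against 9.93% of domains with mH2A2. The bases were 46.2% GC with 10.2 CpG per kb, against 48.6% and 12.3 for domains with mH2A2 and 41.7% and 8.22 for the genome. Within the 4 to 10 kb length class the median start distance was 54.4 kb for mH2A1-only domains, against 32.6 kb for domains with mH2A2, so the order of distances was the same at matched length. These are descriptions over domains, which are not replicates.

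Across chromosomes, mH2A1-only domains covered 0.851% of bins (chromosome 17) to 1.8% (chromosome 13) of each autosome, 8 lay on the X chromosome and 0 on Y. They were spread over 2175 of 2737 windows of 1 Mb. The window with the most mH2A1-only sequence, chromosome 6 from 53 to 54 Mb, held 37 domains over 113 kb beside the starts of Jazf1, Creb5, Tril and Cpvl. A window on chromosome 8 from 89 to 90 Mb held 41 domains over 100 kb beside Sall1, a zinc finger transcription factor. One on chromosome 9 from 116 to 117 Mb held 41 over 97.4 kb beside Tgfbr2, a receptor of transforming growth factor beta. Domains with mH2A2 took up more of each of these windows, at 192, 330 and 281 kb in the order given.

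Central 300-base windows were searched on both strands for motifs of activity-dependent and lineage factors. The AP-1 motif TGANTCA was in 8.98% of mH2A1-only domains and 8.72% of domains with mH2A2. The E-box CAGCTG was in 14.7% of mH2A1-only domains and 16.0% of domains with mH2A2, and the MEF2 motif (CTA, any 4 bases, TAG) in 4.28% of mH2A1-only domains and 4.06% of domains with mH2A2. The cyclic AMP element TGACGTCA was in 0.182% of mH2A1-only domains and 0.169% of domains with mH2A2. The NFI motif was in 0.0607% of mH2A1-only domains, which is 9 domains, and in 0.0262% of domains with mH2A2.

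Of 21938 protein-coding genes, 557 (2.54%) had a start site within 2 kb of an mH2A1-only domain, 246 of them inside one, whereas 29.5% had one within 2 kb of a domain with mH2A2. Of the 557 genes, 104 also had their start within 2 kb of a domain with mH2A2. A level in intact mice was available for 517 of the 557, and most of these 517 were low in CA1. In the 3 untrained intact mice, their median level was 0.335, 0.299 and 0.331 RPKM (reads per kb of gene, scaled to library size), against 0.231, 0.22 and 0.214 RPKM near domains with mH2A2 only and 3.19, 3.08 and 3.1 RPKM near no mH2A1 domain. Some were high all the same. Chosen after the values were seen, Aldoc, a glycolytic enzyme of astrocytes, had 258, 245 and 229 RPKM, and Kcnj10 had 38, 34.9 and 37.7 RPKM. In bulk tissue, fewer cells of a type and less RNA per cell cannot be told apart.

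The knockdowns were read first in their targets. In the depletion experiment H2afy had 43.5, 44.5 and 38.7 CPM, the counts scaled to library size, in shH2afy mice, 72.1, 66.3 and 67.5 CPM in shH2afy2 mice and 60.6, 59.2 and 50.6 CPM in shScr mice. shH2afy was below both other groups in every mouse (log2 fold change against shScr −0.37 ± 0.10 SE, edgeR adjusted p = 0.031). H2afy2 had 13.2, 8.21 and 7.74 CPM in shH2afy2 mice and 18.2, 19 and 18.2 CPM in shScr mice (log2 fold change −0.95 ± 0.22 SE, edgeR adjusted p = 0.0907). In shH2afy mice H2afy2 had 16.2, 15 and 13.5 CPM, below every shScr mouse (log2 fold change −0.25 ± 0.12 SE, edgeR adjusted p = 0.159). In the training experiment, H2afy was not lower in untrained libraries labelled shH2afy (87, 87.7 and 87.7 CPM) than in shScr libraries (81.7, 82.5 and 79.2 CPM; log2 fold change 0.13 ± 0.05 SE, edgeR adjusted p = 0.0868). By the study's methods, these libraries were ribo-depleted and reads were counted over the whole transcribed span, introns included, so their H2afy count is not a measure of spliced mRNA alone. These counts do not show a lower H2afy level, and directions from this experiment rest on libraries labelled shH2afy.

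Genes at mH2A1-only domains were called higher in shH2afy mice in a larger share than all genes tested. Of 394 near genes tested, 93 rose and 5 fell in shH2afy against shScr mice (edgeR quasi-likelihood, adjusted p below 0.01 and fold above 2). That is 24.9%, against 11.7% of all 16179 genes tested and 22.1% of genes near domains with mH2A2, so the share was close to that of mH2A1 domains with mH2A2. In this and the later comparisons of knockdowns, genes near both kinds of domain were counted only as near mH2A1-only domains. The median log2 fold change was 0.36 near mH2A1-only domains, 0.15 near domains with mH2A2 and 0.01 over all genes. The 24.9% fell to 14.5% with the replicate number as a block and to 11.7% with no filter on low counts. It fell to between 11.7 and 14.6% without shH2afy replicate 1 or 2 or any 1 shScr mouse. In these settings 5.65 to 7.67% of all genes were called. Without shH2afy replicate 3 the share near mH2A1-only domains was 27.1%. Most near genes were low in CA1, and the filter can keep a gene for its level in shH2afy mice alone. Such a gene can only be called higher, so the larger share is a description.

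Markers of other cells moved in the same libraries. All 20 microglial genes rose (summed level 5950 to 14200 CPM in shH2afy mice and 1770 to 2660 CPM in shScr mice), as did all 22 interferon response genes (1210 to 2150 CPM in shH2afy mice and 66.8 to 94.2 CPM in shScr mice) and 10 of 16 astrocyte genes (9780 to 10700 CPM in shH2afy mice and 5190 to 6580 CPM in shScr mice). Of 8 lymphocyte genes tested, 3 rose (57.8 to 2000 CPM in shH2afy mice and 12.9 to 30.3 CPM in shScr mice). None of 15 CA1 pyramidal genes rose and 2 fell (3720 to 6500 CPM in shH2afy mice and 6730 to 11100 CPM in shScr mice), and 6 of 14 inhibitory neuron genes fell (1060 to 1220 CPM in shH2afy mice and 1740 to 2110 CPM in shScr mice). No listed gene was at 0 in all the libraries compared. Of the 93 near genes that rose, 7 are on these lists, and the part of these cells in the result was not tested.

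The interferon response held the largest number of near genes of any list, 5 of 22, while 9 of the 22 had a start within 2 kb of a domain with mH2A2. Ifi27l2a had 39.1, 47.6 and 38 CPM in shH2afy mice, against 0.29, 0.192 and 0.494 CPM in shScr mice (log2 fold change 7.09 ± 0.28 SE, edgeR adjusted p = 4.01e-05). Oasl2, a member of the oligoadenylate synthetase-like family, had 267, 260 and 161 CPM in shH2afy mice, against 2.61, 1.79 and 2.18 CPM in shScr mice (6.75 ± 0.29 SE, edgeR adjusted p = 4.01e-05). Rsad2, the antiviral enzyme viperin, had 67.6, 55.7 and 38.7 CPM in shH2afy mice, against 0.944, 0.96 and 0.791 CPM in shScr mice. Gbp3, a guanylate binding protein, had 132, 139 and 66.9 CPM in shH2afy mice, against 3.78, 3.65 and 3.96 CPM in shScr mice. Stat2, a transcription factor of interferon signalling, had 152, 140 and 98.6 CPM in shH2afy mice, against 26.7, 26.4 and 16 CPM in shScr mice. In each of the 5 genes the shH2afy mice lay above all shScr mice, and the share of all genes whose groups did not overlap was not determined. All 22 interferon response genes rose, so the rise was not particular to these 5. The domain at Oasl2 (chr5:114895001-114897800) held its start, and recurred in 13 of 16 mH2A1 and 2 of 8 mH2A2 libraries. The domain at Gbp3 (chr3:142561201-142565600) lay 1.18 kb from its start and recurred in 8 mH2A1 and 0 mH2A2 libraries. The domain at Rsad2 (chr12:26454401-26454600) was a single bin 1.85 kb from the start, and recurred in 14 mH2A1 and 0 mH2A2 libraries.

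Further genes were near the detection floor in shScr mice and rose. Ifi211, an interferon-inducible gene, had 15.1, 14.4 and 5.4 CPM in shH2afy mice, against 0.145, 0 and 0.0989 CPM in shScr mice. The shScr libraries held 3 reads of it in all and the shH2afy libraries 542, a ratio of 180 (95% exact interval 61.2 to 874, for counting error only). Hcar2, a receptor for hydroxycarboxylic acids, had 27.3, 31 and 11.8 CPM in shH2afy mice, against 0.363, 0.064 and 0.0989 CPM in shScr mice. Ccl2, a chemokine that attracts monocytes, had 14.5, 24.9 and 7.25 CPM in shH2afy mice, against 0.218, 0.064 and 0.0989 CPM in shScr mice. Their domains differed in recurrence, with 2 of 16 mH2A1 libraries at Ifi211, 14 at Hcar2 and 15 at Ccl2. Above that floor, 2 marker genes rose as well. Cd44, an adhesion receptor of reactive astrocytes, had 148, 144 and 102 CPM in shH2afy mice, against 3.12, 6.27 and 5.83 CPM in shScr mice. Lyz2, lysozyme of microglia and macrophages, had 455, 713 and 122 CPM in shH2afy mice, against 18.4, 3.26 and 6.13 CPM in shScr mice. The Lyz2 call was lost without shH2afy replicate 1 and without shScr replicate 2 or 3, where its log2 fold change was 5.56, 5.09 and 5.34.

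The promoters of 3 of these genes are shown because they hold the interferon-response motif (GAAA, any 2 bases, GAAA, on either strand), in capitals (250 bases before the start, RefSeq, GRCm38.p6, in the direction of the gene, 5′ to 3′). The windows are chr1:173913047-173913296 (minus strand), chr12:26456453-26456702 (minus strand) and chr10:128270248-128270497 (plus strand).
Ifi211: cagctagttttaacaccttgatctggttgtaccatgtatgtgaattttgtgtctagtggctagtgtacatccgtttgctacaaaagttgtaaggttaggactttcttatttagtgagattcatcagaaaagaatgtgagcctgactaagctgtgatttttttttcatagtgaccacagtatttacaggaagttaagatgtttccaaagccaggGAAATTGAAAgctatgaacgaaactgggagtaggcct
Rsad2: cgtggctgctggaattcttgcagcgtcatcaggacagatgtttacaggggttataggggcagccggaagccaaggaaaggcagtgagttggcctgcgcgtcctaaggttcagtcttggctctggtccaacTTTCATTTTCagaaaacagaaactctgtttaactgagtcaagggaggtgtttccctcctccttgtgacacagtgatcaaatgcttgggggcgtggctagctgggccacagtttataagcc
Stat2: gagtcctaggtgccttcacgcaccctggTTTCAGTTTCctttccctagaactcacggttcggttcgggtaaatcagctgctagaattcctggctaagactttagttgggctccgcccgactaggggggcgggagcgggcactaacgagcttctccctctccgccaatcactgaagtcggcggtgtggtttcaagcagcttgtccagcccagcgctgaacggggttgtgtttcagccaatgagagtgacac
On either strand the motif was in 2.98% of 32851 RefSeq promoter windows of this length, and in 26 of 522 (4.98%) belonging to genes near mH2A1-only domains. A promoter was found for 414 of the 557 genes, and the Oasl2, Cd44 and Lyz2 windows held no match. Gbp3 had 2 matches in one of its windows and 0 in the other, and is not printed. The genes shown were chosen after their values were seen.

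Of the 5 genes that fell, 4 are protein-coding and the other is the transcript A530058N18Rik, named here after its values were seen. Pitpnm3, a phosphatidylinositol transfer protein, had 18, 28.5 and 23.9 CPM in shH2afy mice, against 41.8, 69.9 and 53.1 CPM in shScr mice (−1.19 ± 0.24 SE, edgeR adjusted p = 0.00868). Atp2b2, a calcium pump of the neuronal membrane, had 218, 189 and 327 CPM in shH2afy mice, against 467, 623 and 493 CPM in shScr mice. Dleu7 and the kinase Stk25 fell by 1.07 and 1.00 on the log2 scale. The calls of these 4 genes were each lost in at least 5 of the 6 settings that left out a mouse.

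Kcnj10, Chst3, Aldoc and Fam107a, at domains named above and chosen after their values were seen, did not pass the thresholds. Kcnj10 had 243, 243 and 214 CPM in shH2afy mice, against 195, 168 and 158 CPM in shScr mice (0.47 ± 0.11 SE, edgeR adjusted p = 0.0169). Chst3 had 11, 11.5 and 7.39 CPM in shH2afy mice, against 5.45, 3.39 and 4.45 CPM in shScr mice (edgeR adjusted p = 0.0107). Aldoc had 410, 455 and 466 CPM in shH2afy mice, against 812, 677 and 760 CPM in shScr mice, with an edgeR adjusted p = 0.00618 but a fold below the 2 required. For Kcnj10, Chst3 and Aldoc the groups did not overlap, which was not counted over all genes. Fam107a had 364, 379 and 343 CPM in shH2afy mice, against 387, 282 and 309 CPM in shScr mice, and its groups overlapped.

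By edgeR, no gene was called in shH2afy2 against shScr mice (0 of 355 near genes and 0% of all 15609 genes). Below an unadjusted p of 0.05 were 72 near genes (20.3%), against 20.7% of all genes. DESeq2 called 2.25% of near genes, against 0.782% of all genes. Oasl2 had 51.1, 38 and 7.18 CPM in shH2afy2 mice and 2.38, 1.68 and 2.19 CPM in shScr mice (3.93 ± 0.70 SE, edgeR adjusted p = 0.0739), and the groups did not overlap. The 2 knockdowns were compared directly: of 402 near genes, 62 rose and 2 fell in shH2afy against shH2afy2 mice, or 15.9% against 17% near domains with mH2A2 and 9.56% of all genes (7.96% higher). The share near mH2A1-only domains was 0% without shH2afy replicate 1 (all genes 0.012%) and 5.06% without replicate 2 (all genes 3.82%). It was 2.07% without shH2afy2 replicate 1 (all genes 0.987%) and 0.698% without replicate 3 (all genes 0.416%). With the block it was 26.4% (all genes 13.7%). Cd44 had 146, 142 and 100 CPM in shH2afy mice and 4.03, 14.3 and 5.05 CPM in shH2afy2 mice (4.10 ± 0.48 SE, edgeR adjusted p = 0.00216). The nicotinic receptor subunit gene Chrna5 had 5.99, 9.87 and 6.86 CPM in shH2afy mice and 17.8, 20.6 and 24.9 CPM in shH2afy2 mice.

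**Figure D4:**
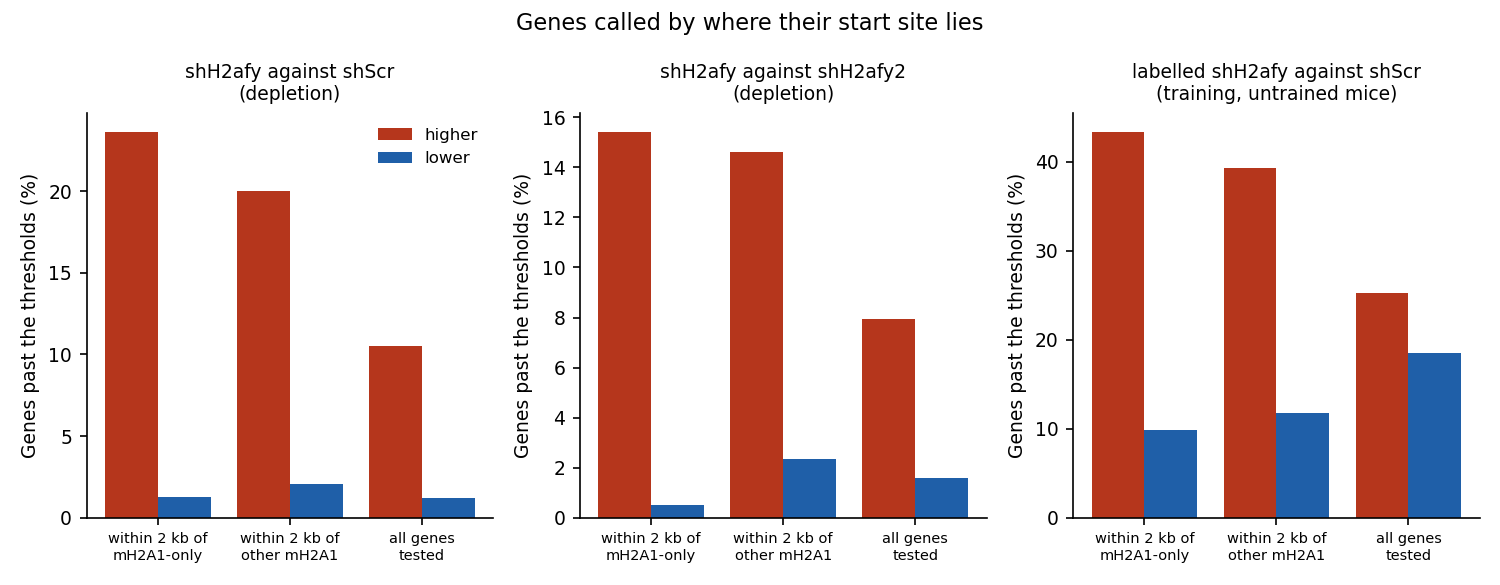
Share of tested genes (%, vertical axis) past the thresholds, higher in red and lower in blue, for genes with a start within 2 kb of an mH2A1-only domain, within 2 kb of another mH2A1 domain, and all genes tested (horizontal axis), in 3 comparisons with separate vertical scales. In shH2afy against shScr mice of the depletion experiment the higher shares are 23.6, 20 and 10.5%. Genes near both kinds of domain are counted only as near mH2A1-only domains.

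In untrained mice of the training experiment, 172 of 397 near genes rose and 39 fell in libraries labelled shH2afy against shScr (edgeR, adjusted p below 0.05 and fold above 1.2), or 53.1% against 51.1% near domains with mH2A2 and 43.7% of all genes. Of the 93 genes that rose in the depletion experiment, 88 were tested and 85 were called higher here, where 25.2% of all genes tested were called higher. The 93 had already been called higher for the same shRNA at stricter thresholds. The matching share for all genes that rose in the depletion experiment was not determined, so the 85 are not a result particular to near genes. Of the 5 that fell, 4 were tested and 2 were called lower. Lyz2 had 123, 261 and 274 CPM in libraries labelled shH2afy and 8.07, 9.81 and 11.4 CPM in shScr libraries (4.50 ± 0.34 SE, edgeR adjusted p = 0.000126). Il1b, an inflammatory cytokine, had 1.41, 2.62 and 2.8 CPM in libraries labelled shH2afy, against 0.0853, 0.165 and 0.174 CPM in shScr libraries. Fyb2 had 3.98, 4.83 and 2.33 CPM in libraries labelled shH2afy, against 10, 13.6 and 11.5 CPM in shScr libraries. All 20 microglial genes (3160 to 4460 CPM in libraries labelled shH2afy, against 692 to 838 CPM in shScr libraries) and 21 of 21 interferon genes rose here as well, and 12 of 15 CA1 pyramidal genes fell. Their part was not tested.

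**Figure D5:**
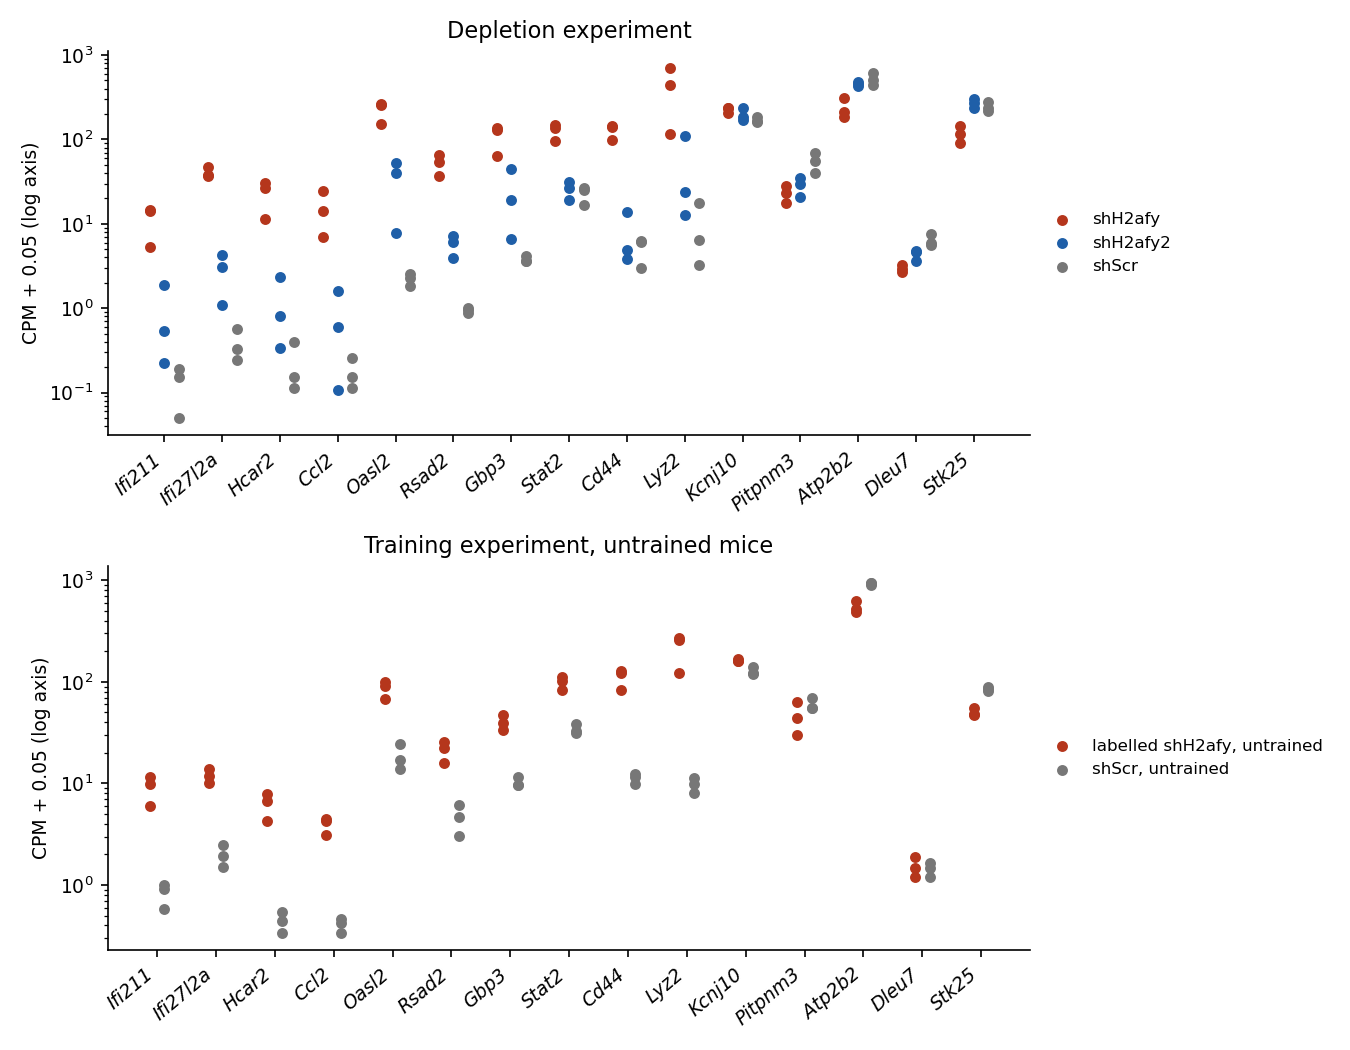
Level of genes near mH2A1-only domains (CPM plus 0.05, log vertical axis) in each mouse, by gene (horizontal axis), for the depletion experiment (top; shH2afy, shH2afy2, shScr) and untrained mice of the training experiment (bottom; labelled shH2afy, shScr). Levels are scaled over all libraries of an experiment. Cd44 stands higher in all 3 shH2afy mice than in all 3 shScr mice in both panels.

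By edgeR with all mice, training moved no near gene past the thresholds at 1 h. Few or no genes of any kind were called, so this cannot show whether near genes respond differently. The study, with DESeq2, reported altered genes in shScr, shH2afy and intact mice. In shScr mice 0 of 380 near genes passed by edgeR (0% of all genes). An unadjusted p under 0.05 was found for 35 near genes (9.21%, against 8.96% of all genes), and DESeq2 called 2.89% of near genes, against 1.32% of all genes. In mice labelled shH2afy 0 of 403 passed by edgeR (0% of all genes). Here 25 near genes (6.2%) had an unadjusted p under 0.05, against 3.86% of all genes, and DESeq2 called 1.24% of near genes, against 0.296% of all genes. In intact mice 0 of 369 passed, against 0.0959% of all genes. Of near genes 77 (20.9%) had an unadjusted p under 0.05, against 19.9% of all genes, and DESeq2 called 2.98% of near genes, against 3.04% of all genes. Without untrained replicate 2 the edgeR share was 3.27% near mH2A1-only domains and 2.68% of all genes. Klf2, an immediate early transcription factor with a domain 1.23 kb from its start, had 14 and 14.8 CPM in trained intact mice and 7.74, 5.54 and 5.58 CPM in untrained intact mice (1.19 ± 0.15 SE, edgeR adjusted p = 0.0248, above the 0.01 set for this experiment). In shScr mice it had 3.17, 2.9 and 3.4 CPM in trained and 1.6, 1.44 and 1.53 CPM in untrained mice (edgeR adjusted p = 0.154). Bdnf, the neurotrophin, had 47.6 and 45.5 CPM in trained and 34.8, 44.5 and 37.4 CPM in untrained intact mice (edgeR adjusted p = 0.226). The domain at Bdnf recurred in 4 of 16 mH2A1 and 5 of 8 mH2A2 libraries.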

How the data were processed

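ChIP domains and RNA were measured in CA1. Per the study's methods and the labels, reads were aligned to mm10 (Bowtie2 for ChIP, STAR for RNA). Domains were called against input, with SICER in the labels and epic2 in the methods, and genes were counted with featureCounts, over the whole transcribed span in the ribo-depleted training experiment. The deposited domain lists give a score, a q-value (FDR, at most 0.05) and a log2 enrichment over input for each domain. RNA files hold deposited counts per gene from the authors, not normalized. The study's methods give an approximate ChIP read depth. The deposited lists also hold ChIP and input reads in each domain but no library totals, so the depth of each ChIP library is unknown. RNA depth was 9.95 to 18.8 M counts in the depletion experiment, 81.4 to 92.2 in the training experiment and 48.8 to 58.7 in intact mice.

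Domains were placed on 200-bp bins, and starts within 2 kb of an mH2A1-only domain (GENCODE M21) gave the near genes. Newer symbols were matched through RefSeq synonyms (300 in the training table, 6 in the intact table). Genes were tested across the whole table of each comparison with edgeR 4.0.16 (TMM, filterByExpr, quasi-likelihood F-test, Benjamini-Hochberg), with DESeq2 1.42.0 as an alternative. Coverage was compared with exact permutation tests over libraries. The count test was checked on simulated data.

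The named genes were up to 5 higher and 5 lower near genes by fold among those called, not overlapping and at a mean of at least 1 CPM, without predicted genes; listed genes near a domain could also be named. Named domains were the 10 longest, the 10 highest by log2 in all 3 lists and 6 most recurrent. Members and lists were chosen with earlier results of these data known. In shScr mice of the training experiment, same-numbered trained and untrained libraries had weak positive correlations (0.169, 0.169 and 0.229), and the block left the count at 0. In every RNA comparison such libraries shared only a number, and single correlations in other comparisons reached 0.525. In the labels, replicates are separate mice. One column with 2 stray values and no sample was not used.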

Additional observations from a re-analysis of the deposited data

Results flagged for a closer look

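Among the 5 untrained mH2A1 libraries of the 6 h set, replicate 2 had the lowest coverage of mH2A1-only domains relative to all bins, 3.27-fold, while the other 4 lay at 3.33 to 3.34-fold. The gap was a large part of the group's range but small in absolute terms. Its share of mH2A1-only bases, 75.3%, was within the range of the group. Of 6 such checks, chance flags about 1 in 20.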

How the results depend on the processing

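The number of mH2A1-only domains depended on the rule: 4407 when all 3 mH2A1 lists were required and 35686 when mH2A2 was counted only in at least 2 of 3 lists. Leaving out a mouse gave 11239 to 12653 domains, which kept 43.0 to 46.5% of the bases. The 1 h difference between mH2A1 and mH2A2 ranged from 1.56 to 1.73 when a library was left out and was 1.66 (exact permutation p = 0.0714) without the 2 libraries whose labels name both antibodies. The training difference at 6 h was −0.0237 for domains with a bin in all 3 lists (exact permutation p = 0.484) and 0.00118 to 0.0256 when a library was left out. For mH2A2 at 1 h it ranged from −0.365 to 0.0799 when a library was left out, the last without untrained replicate 1, and for mH2A1 from 0.0933 to 0.155. Without the libraries with 2 antibody names, 41.5% of domains recurred in all late mH2A1 libraries. The cause of these shifts was not tested.

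The share of near genes called is given with the share of all genes under the same setting in brackets. In shH2afy against shScr it was 11.7% with no filter on low counts (7.6%), 14.5% with the replicate block (7.08%), 13.5% within 100 kb (11.7%) and 11.7 to 27.1% when a mouse was left out (5.65 to 14.1%). For shH2afy against shH2afy2 it was 10.3% with no filter (7.18%), 26.4% with the block (13.7%) and 0 to 20.6% when a mouse was left out (0.012 to 12.5%). For shH2afy2 against shScr it was 2.25% by DESeq2 (0.782%), 1.14% with no filter (0.923%) and 0 to 0.267% when a mouse was left out (0 to 0.0125%). For libraries labelled shH2afy against shScr in the training experiment it was 47.6 to 54.8% when a mouse was left out (36.6 to 45.9%) and 50.9% with the block (40.7%). For training in shScr mice it was 2.89% by DESeq2 (1.32%) and 0 to 0.262% when a mouse was left out (0 to 0.00645%). For training in mice labelled shH2afy it was 1.24% by DESeq2 (0.296%) and 0 when a mouse was left out (0). In intact mice it was 2.98% by DESeq2 (3.04%), 0.589% with no filter (0.261%), 0.144% over gene bodies and 0.134% within 100 kb (0.0959% each) and 0 to 3.27% when a mouse was left out (0.0063 to 2.68%). The replicate numbers name different mice in every RNA comparison. Outside training in shScr mice, correlations of same-numbered libraries ran from −0.29 to 0.525. In the 3 training comparisons of coverage, where no difference was called, the block gave exact permutation p = 0.562 (6 h), 1.0 (1 h, mH2A2) and 0.5 (1 h, mH2A1). The 1 h comparison of mH2A1 with mH2A2 was not fitted with a block. Of 369 refits of named genes, 305 kept call and direction, 64 lost the call and 0 reversed.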
